A study of Mus musculus with 9 samples.

Results

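Genes of brown and white fat cells were measured in whole mouse cochleae. The genes followed were Ucp1 and Cidea, which mark brown fat cells, and the general adipocyte genes Adipoq, Fabp4, Plin1, Lep, Cfd, Pparg, Gpd1 and Lpl. A probe set, the group of array probes that reads 1 transcript, was taken where the array annotation gave it exactly 1 of these symbols. This found 15 of the 45037 probe sets in the table, 2 for the brown fat genes and 13 for the general ones, and covered 8 of the 10 genes. No probe set carried Plin1 or Cfd as its single symbol, and both genes are not analysed here.

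The samples came from male C57BL/6 mice, an inbred strain that loses hearing with age. They formed 3 groups: calorie-restricted mice at 15 months of age (CR), control mice at 15 months (MC) and young control mice at 4 months (YC). The restricted mice ate 62 kcal per week from 2 months of age until 15 months, which was 26% below the 84 kcal per week of both control groups, and the mice of every group were housed singly. Each of the 3 samples in a group pooled 4 cochleae of 2 mice and was hybridised to its own Affymetrix array, so p-values measure the spread between such pools. Array medians of the deposited signal were 535.2 to 626.6 in CR, 843.6 to 981.3 in MC and 526.8 to 1103.9 in YC. CR arrays and YC 1 fell in a low-median class, and MC arrays with YC 2 and YC 3 in a high-median class, so array class and diet cannot be told apart between CR and MC. Where array class is a term in a fit, its size is set only by YC 1 against YC 2 and YC 3. A CR minus MC value from such a fit therefore does not separate class from diet.

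Brown fat cells burn fuel for heat: Ucp1 lets protons return across the inner mitochondrial membrane without making ATP. White fat cells store triglyceride in one large droplet and release hormones such as leptin and adiponectin. Both cell types depend on the transcription factor PPARγ, and several of the genes it controls, Fabp4 and Lpl among them, are also used by capillary endothelium, macrophages or muscle. In RNA from a whole dissected organ, fewer cells of a type and less RNA per cell cannot be told apart.

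The tissue label was checked against 14 cochlear genes, of which 13 were annotated and 10 passed the signal filter. The filter dropped the dimmest 40% of probe sets by mean log2 signal and left 27022. Coch, which encodes cochlin of the cochlear matrix, had deposited signals of 41187.6, 57568.3 and 62293.2 in CR, 25022.3, 24277.2 and 19290.1 in MC, and 37216.3, 15823.4 and 16989.2 in YC. Otos, the otospiralin gene of spiral ligament fibrocytes, lay between 15335.9 and 57115.7 over the 9 arrays. The hair cell motor gene Slc26a5 and the tectorial membrane gene Tecta were not among the 10 that passed.

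The Ucp1 signal was bright on every array. Its single probe set ranked between place 77 and place 416 by brightness among the 45037 probe sets of its array. The deposited signals were 88075.3, 79183.9 and 80010.3 in CR, 44799.4, 44921.1 and 25519.9 in MC, and 52032.3, 22663.8 and 52198.3 in YC. All 3 CR arrays lay above all 6 control arrays, and MC 3 and YC 2 were the lowest. Brightness cannot be set against that of another probe set, since probes differ in how strongly they bind, so ranks place a probe set within its array only.

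On the normalized log2 scale, used for every change below, Ucp1 averaged 16.3 ± 0.01 in CR, 15.29 ± 0.43 in MC and 15.3 ± 0.19 in YC (SD, n = 3 each). The CR minus MC change was 1.01 ± 0.21 (SE), a fold of 2.01, with a 95% interval from 0.55 to 1.46. It did not pass the threshold of 0.05 for the Benjamini-Hochberg adjusted p of limma over all tested probe sets (unadjusted p = 0.000558, adjusted p = 0.109). The CR minus YC change was of the same size, 1.0 ± 0.21 with an interval from 0.54 to 1.46 (limma adjusted p = 0.337). Between MC and YC the difference was -0.01 ± 0.21, with an interval from -0.47 to 0.45, and the arrays overlapped.

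The Ucp1 promoter is shown because this gene had the smallest p of the members in the restriction comparison. It is the stretch from 250 bases before to 50 bases after the transcript start, from RefSeq for build GRCm38.p6, plus strand, chr8:83290098-83290397, and the capitals mark AGGTCA, the core hexamer bound by many nuclear receptors. The hexamer lay at -14 to -9, counted from the transcript start, and was searched on both strands. Of 32851 promoters of this length in the same table, 16.3% held it, and a match is a description of the sequence, not a binding site.
Ucp1: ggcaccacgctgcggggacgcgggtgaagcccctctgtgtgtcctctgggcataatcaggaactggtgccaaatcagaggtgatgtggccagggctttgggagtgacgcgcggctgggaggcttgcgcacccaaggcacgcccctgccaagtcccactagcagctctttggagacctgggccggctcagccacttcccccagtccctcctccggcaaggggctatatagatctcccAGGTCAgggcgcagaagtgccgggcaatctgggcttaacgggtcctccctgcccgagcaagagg

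With array class as a term in the fit, the Ucp1 CR minus MC change was 1.04 ± 0.39 (limma adjusted p = 1). That class term rests on YC 1 against YC 2 and YC 3 alone. With the log2 array median as a covariate the change was 0.90 ± 0.29 (limma adjusted p = 0.695). Within the low-median class, the 3 CR arrays against YC 1 alone gave 1.02 ± 0.16 (limma adjusted p = 0.0941), a fit in which the lone YC array is assumed to vary like the CR arrays. The change was called in 4 of 22 alternatives, among them the fit without YC 2 (adjusted p = 0.0396), which called 987 of 27022 probe sets. Adjusted p over the alternatives ran from 0.00833 to 1.

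Cidea encodes a lipid droplet protein that is abundant in brown fat. Its single probe set read 47304.1, 38440.3 and 42550.8 in CR, 36965.9, 26238.7 and 15227.1 in MC, and 37221.6, 11850.7 and 39559.9 in YC. The deposited signals of CR lay above those of MC but overlapped those of YC, and MC 3 and YC 2 were again the lowest. Normalized log2 levels averaged 15.22 ± 0.08 in CR, 14.72 ± 0.63 in MC and 14.72 ± 0.52 in YC (SD, n = 3 each). Cidea did not pass in either restriction contrast, at 0.51 ± 0.32 for CR minus MC (interval -0.19 to 1.21, limma adjusted p = 0.396) and 0.50 ± 0.32 for CR minus YC (limma adjusted p = 0.508). Without MC 3 the CR minus MC value was 0.19, and with the array median as a covariate it was 0.13 ± 0.42. MC minus YC was -0.01 ± 0.32.

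**Figure D1:**
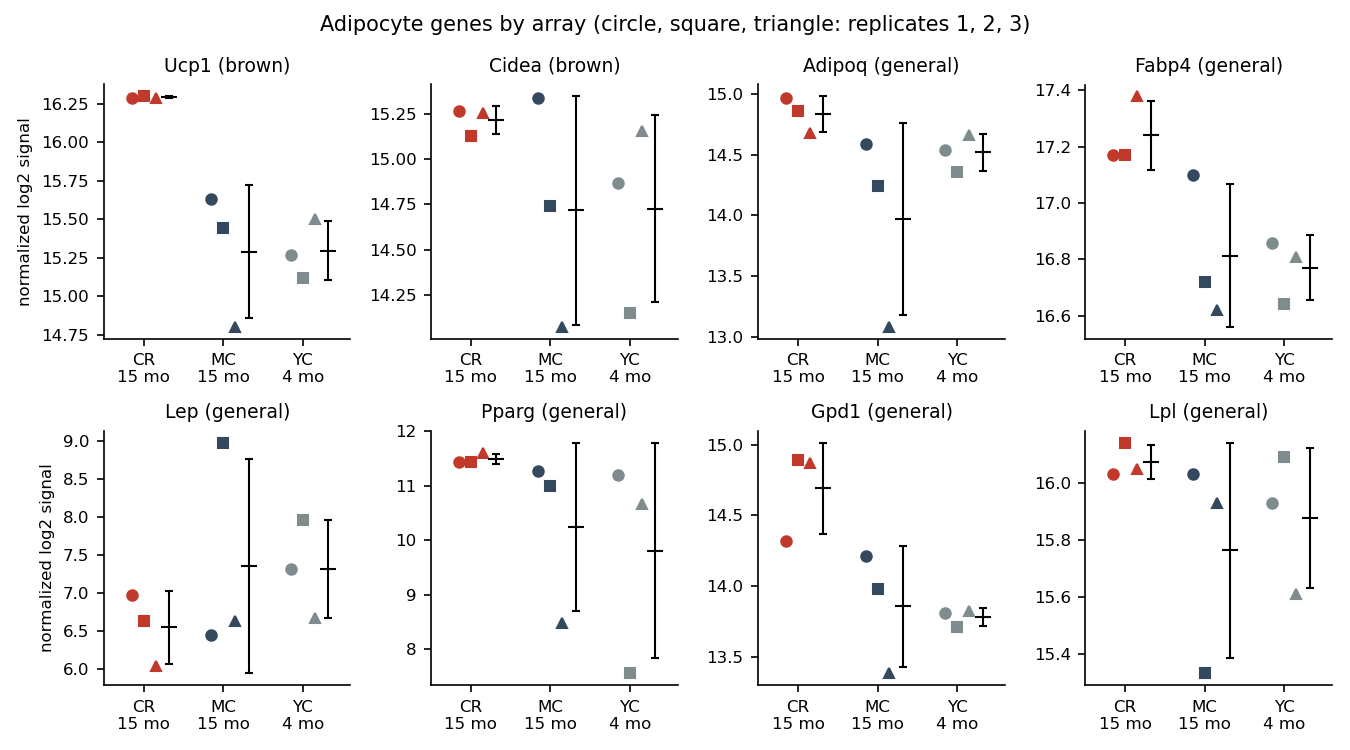
Normalized log2 signal of the brightest probe set of each of the 8 measured genes on the 9 arrays, with CR, MC and YC from left to right. Symbols mark replicates and the bars give the mean and SD (n = 3). The 3 CR arrays of Ucp1 lie together at a mean of 16.3, above MC at 15.29 and YC at 15.3, whereas Lep has its lowest mean in CR. Each panel has its own vertical scale.

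Among the general adipocyte genes, the secreted hormones come first. Adipoq encodes adiponectin, made by fat cells. It gave 39183.0, 32639.1 and 30179.9 in CR, 21970.9, 18599.6 and 7450.7 in MC, and 30888.6, 13465.6 and 26904.6 in YC. CR stood clear of MC in these signals and overlapped YC, and MC 3 was the lowest array. The CR minus MC change was 0.87 ± 0.32 (fold 1.82, interval 0.16 to 1.57, limma adjusted p = 0.212), with no overlap. CR minus YC was 0.32 ± 0.32 (limma adjusted p = 0.648), and MC minus YC was -0.55 ± 0.32 (interval -1.25 to 0.15, unadjusted p = 0.112, limma adjusted p = 1). Without MC 3 the CR minus MC value was 0.42.

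The Adipoq promoter, from the same RefSeq table, plus strand, chr16:23146286-23146585, is shown beside that of Ucp1 as the gene made in all fat cells. Capitals mark the CCAAT box, found on the minus strand at -34 to -30 and -27 to -23 and on the plus strand at -7 to -3. CCAAT on either strand occurred in 37.4% of the 32851 promoters.
Adipoq: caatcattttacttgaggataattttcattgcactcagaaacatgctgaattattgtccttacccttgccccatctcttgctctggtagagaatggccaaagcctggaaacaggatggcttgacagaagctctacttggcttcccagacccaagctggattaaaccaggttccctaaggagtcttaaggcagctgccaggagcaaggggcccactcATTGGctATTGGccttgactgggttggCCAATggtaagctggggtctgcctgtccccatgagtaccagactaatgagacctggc

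Lep encodes leptin, the fat cell hormone that reports energy stores to the brain. Its single probe set was dim and did not pass the signal filter, with 67.5, 61.1 and 37.6 in CR, 95.1, 569.4 and 118.6 in MC, and 87.3, 330.3 and 103.3 in YC. The deposited signals of all 3 CR arrays were below those of all 6 control arrays, and MC 2 and YC 2 stood above the rest. After normalization CR overlapped both control groups. In the fit with no signal filter, CR minus MC was -0.80 ± 0.78 (limma adjusted p = 0.617), CR minus YC -0.77 ± 0.78 (limma adjusted p = 0.713) and MC minus YC 0.04 ± 0.78 (limma adjusted p = 1). None passed, and no difference was much larger than its standard error. Lep is the only member whose CR mean was the lowest of the 3 groups on its brightest probe set.

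The Lep promoter, plus strand, chr6:29059971-29060270, from the same table, is shown for the hormone gene whose CR mean was not the highest. Capitals mark TTGCNNAA, a pattern bound by C/EBP factors of fat cells, where N is any base. It reads the same on both strands here, at -55 to -48, and occurred in 10.8% of the promoters. CCAAT and AGGTCA were searched in it too and were not in this window.
Lep: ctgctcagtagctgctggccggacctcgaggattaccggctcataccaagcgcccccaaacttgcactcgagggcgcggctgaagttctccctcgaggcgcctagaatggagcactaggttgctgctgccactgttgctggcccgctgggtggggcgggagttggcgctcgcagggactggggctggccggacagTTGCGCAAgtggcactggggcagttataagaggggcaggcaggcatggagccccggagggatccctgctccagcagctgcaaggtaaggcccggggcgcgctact

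Pparg encodes PPARγ, the nuclear receptor that fat cells need to form. Its probe set read 2825.5, 2828.7 and 3190.2 in CR, 2447.6, 2014.9 and 452.2 in MC, and 2316.2, 250.9 and 1643.9 in YC. CR arrays were the highest and close together, while MC 3 and YC 2 fell far below their groups. Means were 11.49 ± 0.1 in CR, 10.25 ± 1.54 in MC and 9.81 ± 1.97 in YC (log2, SD, n = 3 each). The differences were 1.24 ± 0.92 for CR minus MC (interval -0.78 to 3.26, limma adjusted p = 0.466), 1.68 ± 0.92 for CR minus YC (limma adjusted p = 0.479) and 0.44 ± 0.92 for MC minus YC (limma adjusted p = 1). The CR minus MC value was 0.36 without MC 3 and turned to -0.85 ± 1.54 with array class as a term, and to -0.78 ± 0.92 with the array median as a covariate.

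Lipid handling genes follow. Fabp4 encodes the fatty acid carrier of fat cells, also present in capillary endothelium and macrophages. Its brightest probe set ranked between place 15 and place 47 on the arrays, with 129412.9, 129431.8 and 142038.6 in CR, 146645.9, 110659.6 and 114274.7 in MC, and 135194.0, 73499.3 and 135762.3 in YC. In these deposited signals the groups overlapped, and MC 1 was the highest array. After normalization CR (17.24 ± 0.12) lay above MC (16.81 ± 0.25) and YC (16.77 ± 0.12) with no overlap, at 0.43 ± 0.16 for CR minus MC (interval 0.07 to 0.78, limma adjusted p = 0.216) and 0.47 ± 0.16 for CR minus YC (limma adjusted p = 0.457). Without quantile normalization the CR minus MC value was 0.12.

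The other 3 probe sets of Fabp4 did not read alike. One of them gave 3285.0, 4527.9 and 4313.6 in CR, 3033.0, 2222.9 and 426.7 in MC, and 3064.7, 1825.6 and 2742.3 in YC, with a CR minus MC change of 1.48 ± 0.68. The remaining ones gave CR minus MC changes of 0.62 ± 0.47 and -0.09 ± 0.24. The probe set at -0.09 was bright too, at 38244.3 to 63339.1 over the arrays, and its groups overlapped. None of the 4 passed.

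Lpl encodes lipoprotein lipase, which frees fatty acids from circulating lipoproteins in fat, muscle and other tissues. Its brighter probe set read 76276.9, 73960.7 and 70954.4 in CR, 61439.2, 40533.3 and 59046.6 in MC, and 79877.1, 43533.0 and 55836.3 in YC. YC 1 was the highest array, and CR was above MC in deposited signals but overlapped it after normalization. The change was 0.31 ± 0.20 for CR minus MC (interval -0.14 to 0.76, limma adjusted p = 0.416) and 0.20 ± 0.20 for CR minus YC (limma adjusted p = 0.657). Without MC 2 the CR minus MC value was 0.09. The dimmer probe set read 8883.8, 7599.4 and 6821.8 in CR, 5270.8, 6572.8 and 3819.3 in MC, and 4820.7, 2916.0 and 5191.9 in YC. On it CR minus YC was 0.70 ± 0.26 (limma adjusted p = 0.457) and CR minus MC 0.29 ± 0.26.

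Gpd1 encodes the cytosolic glycerol-3-phosphate dehydrogenase, which supplies the glycerol backbone of triglyceride. Its brightest probe set read 25002.6, 33255.4 and 33815.2 in CR, 16812.8, 15450.4 and 9145.8 in MC, and 18312.9, 8970.1 and 14252.7 in YC. CR lay above every control array. The changes were 0.84 ± 0.24 for CR minus MC (fold 1.79, interval 0.31 to 1.36, limma adjusted p = 0.171) and 0.91 ± 0.24 for CR minus YC (limma adjusted p = 0.439). With array class as a term CR minus MC was 0.79 ± 0.44, within the low-median class CR minus YC 1 was 0.88 ± 0.24 (limma adjusted p = 0.219), and without MC 3 the CR minus MC value was 0.60.

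A second Gpd1 probe set ran the other way. It gave 1463.4, 1607.8 and 1698.3 in CR, 3887.0, 2699.3 and 5524.1 in MC, and 3025.6, 6641.3 and 3511.1 in YC. All CR arrays were below all control arrays, with a CR minus MC change of -1.29 ± 0.44 (limma adjusted p = 0.194) and a CR minus YC change of -1.44 ± 0.44 (limma adjusted p = 0.457). Another probe set read 2387.6, 3037.7 and 5920.7 in CR, 2104.8, 2007.8 and 2184.7 in MC, and 1623.1, 2264.8 and 2829.0 in YC, at 0.69 ± 0.33 for CR minus MC (limma adjusted p = 0.288). The last one was below the filter. Averaged over the 3 probe sets past the filter, the CR minus MC value of Gpd1 was 0.08.

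**Figure D2:**
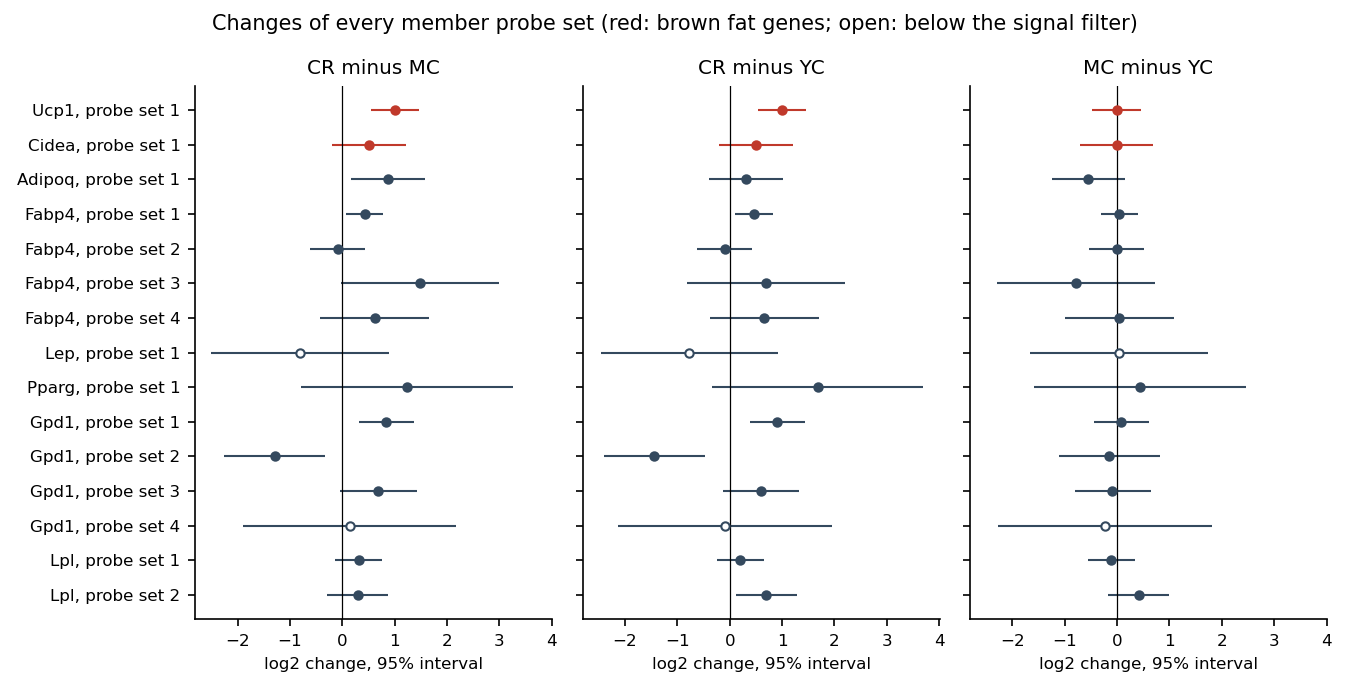
Log2 change and 95% interval of all 15 probe sets for CR minus MC, CR minus YC and MC minus YC, with brown fat genes in red and probe sets below the signal filter as open circles. In CR minus MC the Ucp1 interval runs from 0.55 to 1.46 and 1 Gpd1 probe set stands at -1.29, on the other side of 0 from its brightest partner at 0.84.

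Counting the brightest probe set of each of the 7 genes past the filter, all 7 were higher in CR than in MC, and 0 passed the threshold. Of all 27022 tested probe sets 54.7% were higher in CR than in MC, and 0.0925% passed, with 1 (0.0037%) higher and 24 lower. At an unadjusted p under 0.05, 4 of the 7 were higher and 0 lower, against 8.99% of all probe sets higher and 9.54% lower. In 5 of the 7 genes (Ucp1, Adipoq, Fabp4, Pparg and Gpd1) every CR array was above every MC array, as in 19.5% of all probe sets. In the deposited signals Fabp4 overlapped, while Cidea and Lpl did not. The median change was 0.84 over the 7 genes, 0.76 over the 2 brown fat genes and 0.84 over the 5 general genes, against 0.08 over all tested probe sets.

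Counted over all 13 probe sets past the filter, 11 were higher and 2 lower in CR than in MC. Every CR array was above every MC array in 6 of them (19.5% of all probe sets) and below in 1 (18.2%), and the median was 0.62. Fabp4, Gpd1 and Lpl each have several of these probe sets, so the 13 are not separate genes. All 7 genes were also higher in CR in the fit without both MC 3 and YC 2, a setting chosen after seeing the data, and 1 of them, Ucp1, was then called (0.76, limma adjusted p = 0.042), in a fit that called 494 of 27022 probe sets against 25 with all arrays. With array class as a term 6 of 7 were higher and 0 were called.

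Against the young controls, all 7 genes were higher in CR, 0 passed and 3 had an unadjusted p under 0.05. Over all probe sets 54.7% were higher and 0% passed (limma). At an unadjusted p under 0.05 stood 2910 of the 27022, 5.21% higher and 5.56% lower. The CR and YC arrays did not overlap in 5 of the 7 genes (Ucp1, Adipoq, Fabp4, Pparg and Gpd1), all higher. Over all probe sets 11.4% were higher and 9.1% lower in this way. Adipoq and Fabp4 overlapped YC in the deposited signals. The median change over the 7 genes was 0.50, against 0.08 over all tested probe sets. Both contrasts use the same CR arrays, so their counts are not separate evidence.

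With age, the fat genes showed no common direction. Of the 7 genes, 3 were higher and 4 lower in MC than in YC, with a median of -0.01 against 0.02 over all probe sets, and the arrays of the 2 groups overlapped in every one. Over all probe sets 52.3% were higher in MC, 2.97% lay above YC with no overlap and 2.92% below. Of the 27022 probe sets 0% had an adjusted p under the threshold (limma). At an unadjusted p under 0.05 there were 915, 1.36% of the table higher and 2.03% lower in MC, and 0 of the 7 genes. The widest differences were Adipoq at -0.55 ± 0.32 and Pparg at 0.44 ± 0.92. Within the high-median class, where the 3 MC arrays can be set against YC 2 and YC 3, Ucp1 was at -0.02 ± 0.29, Cidea at 0.06 ± 0.41, Adipoq at -0.54 ± 0.42 and Pparg at 1.13 ± 1.07.

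The ratio of 2 members within an array does not depend on a scaling factor of that array. It can still depend on the shape of the signal distribution, as the arrays had like trimmed means but unlike medians. Ucp1 over Adipoq, of the deposited signals, was 2.25, 2.43 and 2.65 in CR, 2.04, 2.42 and 3.43 in MC, and 1.68, 1.68 and 1.94 in YC. Both older groups were above the young controls with no overlap, and overlapped each other. The log2 difference was 0.54 for MC minus YC and 0.46 for CR minus YC, each with a two-sided exact permutation p = 0.1, the smallest that 3 against 3 samples allow, and 0.225 after Benjamini-Hochberg adjustment over 9 ratio comparisons. For CR minus MC it was -0.07 (exact permutation p = 0.9).

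Ucp1 over Cidea was 1.86, 2.06 and 1.88 in CR, 1.21, 1.71 and 1.68 in MC, and 1.40, 1.91 and 1.32 in YC. CR was above MC with no overlap (log2 difference 0.35, exact permutation p = 0.1, adjusted p = 0.225) and overlapped YC. Cidea over Adipoq was 1.21, 1.18 and 1.41 in CR, 1.68, 1.41 and 2.04 in MC, and 1.21, 0.88 and 1.47 in YC, with a log2 difference of -0.42 for CR minus MC (exact permutation p = 0.1, adjusted p = 0.225). No ratio comparison could reach 0.05 with 3 samples a group, and the ratios were chosen after the values had been seen. A ratio that differed between groups would mean unequal change of its 2 genes, not which of them moved.

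**Figure D3:**
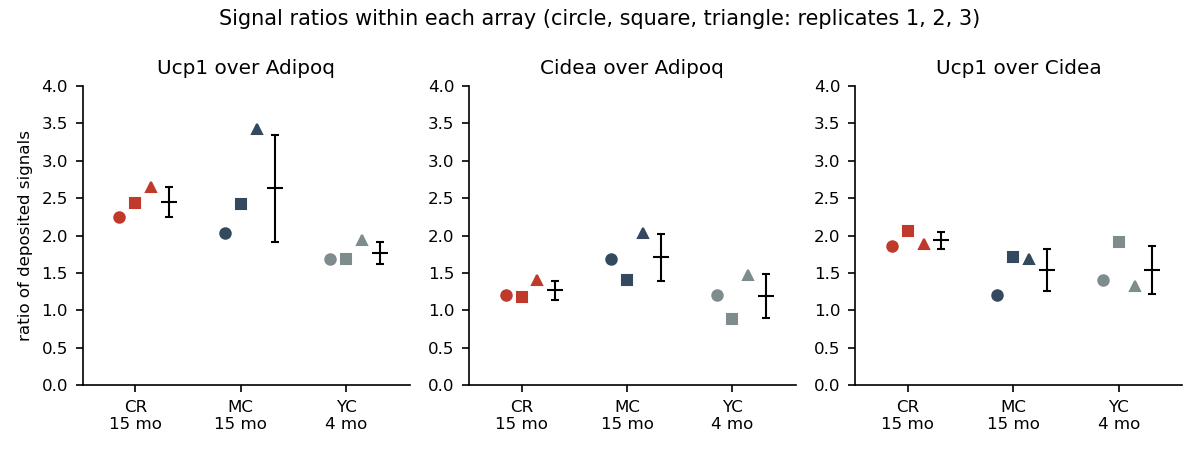
Ratio of deposited signals within each array for Ucp1 over Adipoq, Cidea over Adipoq and Ucp1 over Cidea, with CR, MC and YC from left to right, symbols for replicates and bars for the mean and SD (n = 3). Ucp1 over Adipoq averages 2.44 in CR and 2.63 in MC, above 1.77 in YC.

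The members varied together over the 9 arrays to different degrees. Ucp1 correlated with Gpd1 at r = 0.941, with Fabp4 at 0.918, with Cidea at 0.804 and with Adipoq at 0.78 (Pearson, normalized log2 values), but with Lpl at 0.305. Cidea and Pparg correlated at 0.911, and both had their lowest values on MC 3 and YC 2. All these arrays share their scaling and 3 group means, and most members were lower on arrays with a higher median. The correlation with the log2 array median was -0.741 for Pparg, -0.66 for Ucp1, -0.641 for Fabp4, -0.596 for Cidea, -0.571 for Adipoq, -0.559 for Gpd1, -0.199 for Lpl and 0.244 for Lep. With the array median as a covariate the CR minus MC values were 0.90 for Ucp1, 0.65 for Adipoq, 0.81 for Gpd1, 0.33 for Fabp4, 0.44 for Lpl, 0.13 for Cidea and -0.78 for Pparg, none of them called.

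Of 13695 genes searched, those most like the mean profile of Ucp1 and Cidea were Mpc1, a subunit of the mitochondrial pyruvate carrier (r = 0.974 over 9 arrays), Agpat2, an enzyme of triglyceride synthesis (0.971), and Cdo1, cysteine dioxygenase (0.97). Mpc1 read 19239.0, 21624.6 and 20885.8 in CR, 14648.3, 8740.0 and 4484.4 in MC, and 14593.1, 4646.5 and 12861.4 in YC, with the lowest values again on MC 3 and YC 2. The genes most like the mean of the 5 general members past the filter were Gnb5, a G protein beta subunit (0.966), Cbll1 (0.944) and Mpc1 (0.938).

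Other genes of brown and beige fat were counted in the same way, though some of them, such as Cox8b and Fabp3, are also used by other tissues. Of a list of 28, 25 were annotated and 22 passed the filter, and 17 of these were higher and 5 lower in CR than in MC with a median of 0.42 against 0.08 over all probe sets. None passed the threshold. Medians of the lists of other tissues, given below, ran from -2.11 for skeletal muscle to 1.07 for brain, with 0.98 for cochlear genes. Every CR array was above every MC array in 10 genes (19.5% of all probe sets) and below in 1 (18.2% of all probe sets). With array class as a term 14 were higher and 8 lower, with a median of 0.32. With the array median as a covariate 15 were higher and 7 lower, with a median of 0.19. Without both MC 3 and YC 2 the counts were 17 and 5, with 2 called, Sirt3 and Slc25a20, in a fit that called 330 of 27022 probe sets higher and 164 lower.

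The members of this list with the smallest p were Slc27a2, which activates and takes up fatty acids, and Sirt3, a mitochondrial deacetylase. Slc27a2 read 3988.0, 3399.3 and 3915.0 in CR, 2099.6, 1442.6 and 1289.2 in MC, and 2348.4, 2272.2 and 2606.8 in YC. CR was highest and MC lowest with no overlap between any of the groups, at 1.27 ± 0.29 for CR minus MC (limma adjusted p = 0.144) and -0.69 ± 0.29 for MC minus YC (limma adjusted p = 1). Sirt3 was at 0.97 ± 0.28 for CR minus MC (limma adjusted p = 0.171) and -0.54 ± 0.28 for MC minus YC (limma adjusted p = 1).

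Genes of the thermogenic programme itself, named here after their values were seen, stood at different places in the CR minus MC contrast. Ppargc1a, the coactivator of mitochondrial biogenesis, was at 0.64 ± 0.42, Elovl3, a fatty acid elongase of brown fat, at 0.51 ± 0.21, and Dio2, which activates thyroid hormone, at 0.34 ± 0.25. Kcnk3, a potassium channel of brown fat and of the adrenal, was at 0.92 ± 0.36. Prdm16, which sets brown fat identity, was at 0.25 ± 0.27, and Cox8b, a cytochrome oxidase subunit of muscle and brown fat, at 0.03 ± 0.25. Cox7a1, an oxidase subunit that muscle also uses, was at -0.23 ± 0.27 and Fabp3, the fatty acid carrier of heart and muscle, at -0.57 ± 0.20. The remaining lower genes of the list were Tmem26 at -0.75 ± 0.50, Ebf2 at -0.07 ± 0.36 and Tbx1 at -0.02 ± 0.36. None of these passed.

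Of 38 other adipocyte genes, 36 were annotated and passed the filter. In CR minus MC 28 were higher and 8 lower, with a median of 0.35 and 0 called. CR arrays were all above MC arrays in 10 genes (19.5% of all probe sets) and all below in 3 (18.2% of all probe sets). With array class as a term the split was 18 and 18 with a median of -0.02, and with the array median as a covariate 21 and 15 with a median of 0.12. Without both MC 3 and YC 2 it was 27 and 9. The split of 18 and 18 came from a class term that rests on YC 1 against YC 2 and YC 3 alone.

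Agpat2 and Angptl4 had the smallest p in this list. Agpat2 read 18154.3, 17734.2 and 18204.3 in CR, 9294.8, 7318.1 and 4948.4 in MC, and 9463.3, 3977.4 and 10420.2 in YC, with a CR minus MC change of 1.0 ± 0.30 (limma adjusted p = 0.178). CR was above every control array. Angptl4, an inhibitor of lipoprotein lipase, read 5130.9, 5252.9 and 5774.7 in CR, 7215.8, 7210.7 and 9400.5 in MC, and 7840.8, 7782.3 and 8281.5 in YC. It was lower in CR than in every control array, at -0.84 ± 0.24 against MC (limma adjusted p = 0.173). The insulin-responsive glucose transporter gene Slc2a4, which muscle also expresses, was at -0.97 ± 0.30 (limma adjusted p = 0.18) and Trarg1, which regulates that transporter, at -0.74 ± 0.22 (limma adjusted p = 0.179). Lipid droplet and hormone genes lay between, with Cidec at 0.72 ± 0.36, Retn, the resistin gene, at 0.34 ± 0.31 and Plin4 at -0.09 ± 0.24. Slc2a4, Trarg1 in this contrast, Cidec, Retn and Plin4 were chosen after their values were seen.

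**Figure D4:**
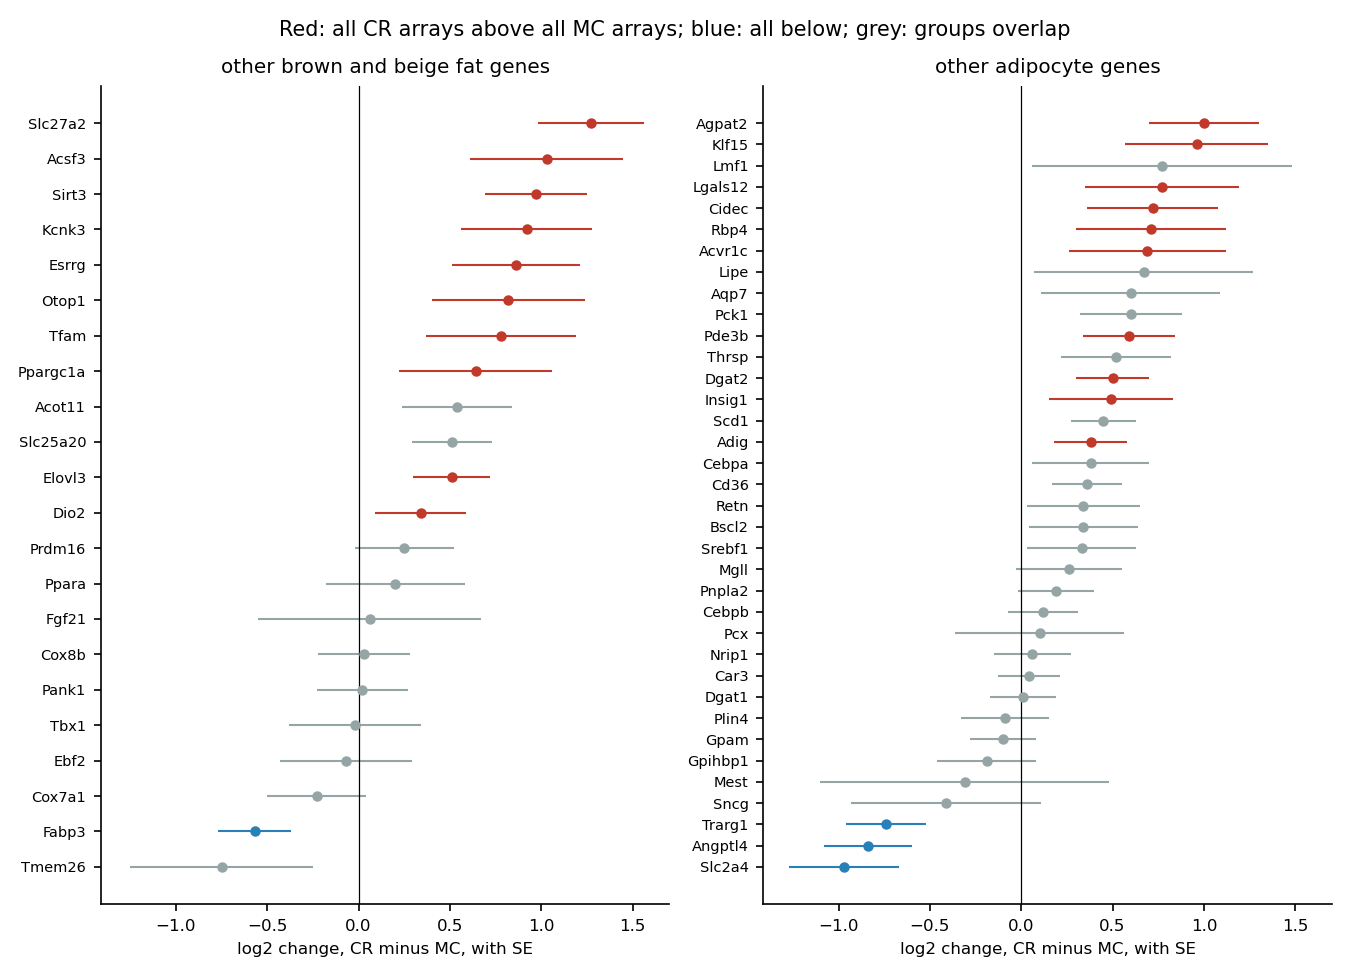
CR minus MC log2 change with its SE for 22 other brown and beige fat genes (left) and 36 other adipocyte genes (right), sorted by size. Red marks genes whose CR arrays all lie above the MC arrays, blue those whose CR arrays all lie below, and grey those that overlap. Red genes number 10 in each panel and blue genes 1 and 3, with Slc27a2 at 1.27 and Slc2a4 at -0.97 at the ends of the non-overlapping genes.

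With age, 10 of the 22 other brown fat genes were higher and 12 lower in MC than in YC (median -0.02), and 19 of the 36 adipocyte genes were higher and 17 lower (median 0.01), with 0 called in limma. Cebpb, a transcription factor of early fat cell formation, was at -0.39 ± 0.19 and Trarg1 at 0.47 ± 0.22 (limma adjusted p = 1 each). With arrays only centred on their own median, where the median over all probe sets was -0.15, the counts were 3 higher and 19 lower for brown fat genes and 7 higher and 29 lower for adipocyte genes, so the even split depended on the scaling.

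Genes of other tissues that can express some of the members differed between the same samples. All 14 skeletal muscle genes were lower in CR than in MC, 11 of them past the threshold, with a median of -2.11 (0.0888% of all probe sets passed on the lower side). All 14 were also lower with array class as a term (median -1.46), with the array median as a covariate (-1.8) and with arrays centred on their median (-1.37), but 0 were then called, and 1 was called in the table as deposited. Their mean log2 level was 13.83 to 14.35 in CR, 15.84 to 16.44 in MC and 15.39 to 16.25 in YC. Myh2, a fast myosin heavy chain, had the widest change of the 14 and fell by 4.31 on the log2 scale (SE 0.43, limma adjusted p = 0.0233). Lpl and Gpd1 are also used by muscle. In CR minus MC the 2 Lpl probe sets were at 0.31 ± 0.20 and 0.29 ± 0.26. The Gpd1 probe sets past the filter were at 0.84 ± 0.24, 0.69 ± 0.33 and -1.29 ± 0.44. The part of muscle in these signals was not tested.

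Brain genes were higher in CR than in MC for 11 of 12 genes, with a median of 1.07 and 0 called. Their mean log2 level was 12.44 to 13.1 in CR, 11.49 to 11.7 in MC and 11.47 to 12.19 in YC, and the cochlear genes stood at 12.15 to 12.69 in CR, 11.64 to 11.8 in MC and 11.28 to 11.88 in YC. The cochlear genes were higher in CR than in MC in 8 of 10 cases (median 0.98, 0 called). With array class as a term these medians were 0.51 for brain and 0.35 for cochlear genes. The other brown fat genes had a median of 0.32 and the other adipocyte genes of -0.02. In that fit Ucp1 was at 1.04, Adipoq at 0.83 and Gpd1 at 0.79. Cidea and Fabp4 were at 0.29 each, Lpl at 0.24 and Pparg at -0.85. The class term of that fit rests on YC 1 against YC 2 and YC 3 alone. Its values do not separate array class from diet. The part that the makeup of the dissected tissue had in the fat genes was not tested.

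Capillary endothelium genes had 5 higher and 7 lower in CR than in MC (median -0.17, 0 called), and macrophage genes 3 higher and 6 lower of 9 (median -0.22, 0 called). Endothelial levels were 10.98 to 11.05 in CR, 10.79 to 11.16 in MC and 10.67 to 11.13 in YC. Macrophage levels were 11.98 to 12.1 in CR, 12.12 to 12.7 in MC and 11.82 to 12.66 in YC. Cdh5, the endothelial cadherin, was at -0.62 ± 0.28 (limma adjusted p = 0.271), and Adgre1, a macrophage surface marker, at -0.97 ± 0.23 (limma adjusted p = 0.146). Fabp4, which both cell types express, was at 0.43 by its brightest probe set and at 1.48, 0.62 and -0.09 by the others. With arrays centred on their median, the medians were 0.57 for endothelial and 0.51 for macrophage genes. In that scaling Fabp4 was at 0.74 and the median over all probe sets was 0.58. The part of these cell types in the Fabp4 signal was not tested. Gpihbp1 and Cd36 stand in both the adipocyte and the endothelial list.

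**Figure D5:**
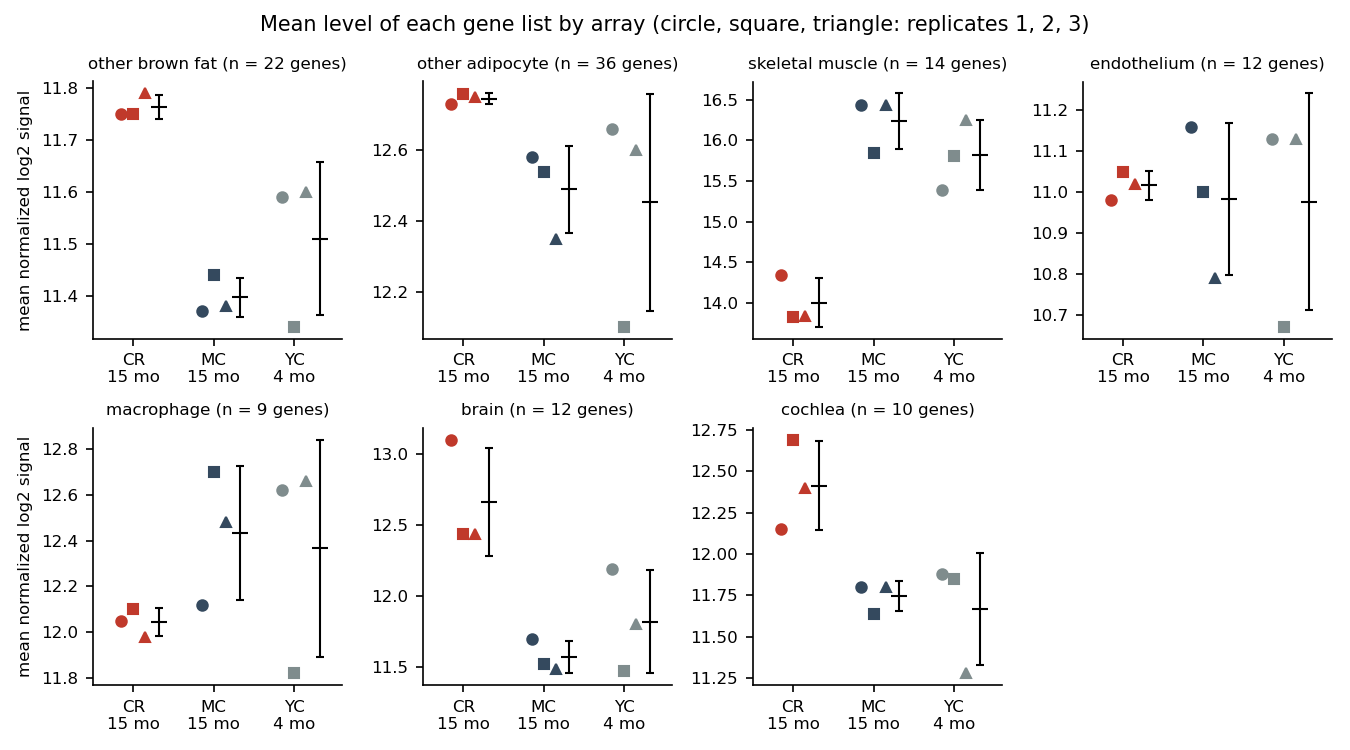
Mean normalized log2 level of each gene list on the 9 arrays, with CR, MC and YC from left to right, symbols for replicates and bars for the mean and SD (n = 3). Other brown fat genes lie at 11.75 to 11.79 in CR and 11.37 to 11.44 in MC, skeletal muscle genes at 13.83 to 14.35 in CR and 15.84 to 16.44 in MC. Each panel has its own vertical scale.

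How the arrays were scaled bore on the size of the member changes. When each array was instead only centred on its own median, the median CR minus MC change over all tested probe sets moved to 0.58. Relative to that median Ucp1 was at 1.19, Cidea at 0.84, Adipoq at 1.26, Pparg at 1.19, Gpd1 at 1.23, Lpl at 0.52 and Fabp4 at 0.16. With neither step, where that median was -0.04, Ucp1 was at 1.15, and 7 probe sets passed, 1 higher and 6 lower. All 7 genes stayed higher in CR than in MC under both scalings. For MC minus YC, 1 of the 7 was higher and 6 were lower with arrays centred on their median.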

How the data were processed

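The authors deposited 1 linear intensity (signal) per probe set and array. The submitters' processing notes name GCOS 1.3, while its signal algorithm, scaling target and detection calls were not given in the sources used here. Trimmed means (2% at each end) were alike on all 9 arrays. As array medians differed 2.1-fold, the deposited intensities were taken to log2(signal + 16) and quantile normalized. The pseudocount shrinks changes of dim features. After dropping the dimmest 40% by mean log2 signal, probe sets were fitted in limma 3.58.1 under R 4.3.3 (group means of 9 arrays, eBayes with a trend), with Benjamini-Hochberg adjustment over 27022 probe sets and a threshold of 0.05. The number of arrays limits precision (median SE 0.43 log2 units).

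Single-gene annotation covered 34945 probe sets, 932 had several symbols and 9160 are unnamed here. Gene IDs matched 34741 to RefSeq (GRCm38.p6). The brightest probe set stood for a gene. Members and lists were chosen with earlier results of these data known. Named genes were all members, the 2 of each fat list with the lowest p in a contrast, and the 3 most alike each profile. Of the lists of other tissues only some genes are named, with Myh2 the muscle gene of smallest p. Promoter sequences, of 6 of the 10 genes in the table used, came from RefSeq. Alternatives were another pseudocount, filter or scaling, no trend, array weights, fewer groups, a replicate block, array class or median, the mean over probe sets of a gene and arrays left out. The fit was tested on simulated data.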

Additional observations from a re-analysis of the deposited data

How the results depend on the processing

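The count of 25 probe sets called for CR minus MC was 0 with arrays centred on their median, with no variance trend, with the replicate block, with array class as a term and with the array median as a covariate. It was 7 in the table as deposited, 3397 with array weights (whose estimation did not converge), 1846 with only the compared groups, and 494 without both MC 3 and YC 2, a setting chosen after seeing the data. Leaving out each array in turn gave 0 to 987, with 0 without CR 2, CR 3, MC 1 or MC 3, 2 without CR 1, 48 without MC 2, 251 without YC 1 and 987 without YC 2. For CR minus YC the count was 3 within the low-median class and 0 to 363 with an array left out, 5 without MC 2 and 363 without YC 1, and for MC minus YC it was 0 throughout. No array class held both CR and MC, so no within-class value could be had for that contrast. The class term itself rests on YC 1 against YC 2 and YC 3 alone. The block changed no other call, and same-numbered samples correlated between -0.29 and 0.266 after removing group means, so the numbers were not taken as pairs.

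Ucp1 was called for CR minus MC with array weights (0.88, adjusted p = 0.00833), with only the compared groups (1.01, adjusted p = 0.0351), without YC 2 and without both MC 3 and YC 2, and Gpd1 with array weights (0.75, adjusted p = 0.042). Values without 1 array ran from 0.76 to 1.17 for Ucp1 and from 0.60 to 1.02 for Gpd1. For CR minus MC the only reversal was Pparg, at -0.85 with array class and -0.78 with the array median. For MC minus YC, signs turned as follows. Ucp1 was at 0.11 with array weights, 0.03 with the array median and 0.15 without both arrays, and Cidea at 0.11, 0.12 and 0.03 in the same settings and 0.06 with array class and within the class. Fabp4 was at -0.06 and Gpd1 at -0.21 with arrays centred on their median. With 1 array left out the ranges were -0.17 to 0.24 for Ucp1, -0.32 to 0.31 for Cidea, -0.10 to 0.14 for Fabp4, -0.69 to 1.32 for Pparg, -0.10 to 0.32 for Gpd1 and -0.25 to 0.10 for Lpl. Averaged over the probe sets of a gene past the filter, Fabp4 was at -0.18, Gpd1 at -0.05 and Lpl at 0.15. That average was 0.08 for Gpd1 in CR minus MC, and in CR minus YC 0.02 for Gpd1 and 0.45 for Lpl. The cause of these shifts was not tested.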

Other observations

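Against the young controls, the other fat genes stood much as they did against the older ones, with which this contrast shares the CR arrays. Of 22 other brown and beige fat genes, 15 were higher and 7 lower in CR than in YC (median 0.38), and of 36 other adipocyte genes 28 were higher and 8 lower (median 0.26), with 0 called in limma. With the array median as a covariate these medians were 0.20 and 0.08. Within the low-median class, against YC 1 alone, they were 0.21 and 0.11. CR arrays were all above YC arrays in 7 brown fat and 5 adipocyte genes, against 11.4% of all probe sets, and all below in 3 and 2, against 9.1%. Esrrg, an orphan nuclear receptor of oxidative tissues, read 2146.7, 3352.5 and 3141.5 in CR and 1559.2, 1995.8 and 1003.6 in YC, a log2 change of 0.98 ± 0.35. Slc25a20, the mitochondrial carnitine carrier, read 24068.7, 24202.5 and 23479.7 in CR and 18613.4, 7986.3 and 14331.4 in YC (0.61 ± 0.22). Agpat2 was at 1.06 ± 0.30 and Angptl4 at -0.83 ± 0.24, and each of these 4 genes had a limma adjusted p of 0.457. Skeletal muscle genes were lower in CR than in YC for 14 of 14 (median -1.69, 0 called).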
